A study of Mus musculus with 9 samples.

Results

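The muscularis externa (ME) of the small bowel was examined 24 h after intestinal manipulation (IM24h) and set against control ME, in transcripts of which the authors deposited the group means. All 634 transcripts of their table of changed genes (502 transcripts of 444 genes) and of their gliosis table (155 transcripts of 109 genes) were taken, each once, since 23 transcripts stand in both. For counts and gene lists each of the 531 genes was represented by its transcript with the largest total. That total takes in the IM24h libraries, so the choice can favour a transcript that is high after manipulation. In Gfap and Osbpl1a, for example, the transcript left out had the higher control mean. Postoperative ileus, the standstill of the bowel that follows abdominal surgery, was modelled in BL6 mice of 8 to 12 weeks by opening the abdomen, lifting out the small bowel and rolling it with moist cotton swabs. IM24h and control have 3 libraries each of the 9 in the series, and the remaining 3 come from ME taken 3 h after manipulation (IM3h). The controls are sham operated according to the labels but naive in the study's text and table headers, so what was done to these mice is uncertain. Apart from this, IM24h and control mice share strain, age range and tissue, and carry no allele or drug named in the labels.

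The ME is a pair of smooth muscle layers with the myenteric plexus between them, a network of enteric neurons wrapped by enteric glia, and with resident macrophages. Handling of the bowel is known to activate these macrophages, and neutrophils and monocytes then leave the blood and enter the muscle. Glia answer injury with gliosis, a reactive state known chiefly from astrocytes of the brain, in which intermediate filaments, acute phase proteins and cytokines are made.

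With the QuantSeq 3' protocol used for sequencing, a read comes from 1 stretch next to the poly(A) tail of an RNA, so a level here is a number of transcript ends and does not grow with transcript length. A level is given as a normalized count, the authors' mean over the 3 libraries of a group. Values of single libraries were not used here, so the spread between libraries, whether groups overlap, and the depth per library are unknown. No test was made for this reason, and differences are given as the ratio of the IM24h mean to the control mean, on the log2 scale unless a fold is named. No label ties a library to a mouse. A gene was counted as higher or lower at a fold of at least 2. Counts, and the ratios of some genes with small means, are also given with a pseudocount of 1 added to both means, because 1 normalized count more or less moves a ratio of small means strongly.

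The choice of transcripts bears on every count. In the table of changed genes a fold of 2 or more separates the means of each transcript in all 3 contrasts (IM24h against control, IM3h against control, and IM24h against IM3h). That all of its transcripts pass the fold is therefore no finding, and only their direction is. Of these 502 transcripts 405 (80.7%) were higher in IM24h ME and 97 (19.3%) were lower. With the pseudocount of 1, 308 (61.4%) were higher and 59 (11.8%) lower. The gliosis table, a list that the study assembled, was not selected by fold. Of its 155 transcripts 77 (49.7%) were higher in IM24h and 12 (7.74%) lower, or 73 (47.1%) and 9 (5.81%) with the pseudocount. Its median log2 ratio was 0.97, against 1.38 in the table of changed genes.

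Over the 531 genes, 394 (74.2%) were higher in IM24h ME, 97 (18.3%) were lower and 40 lay within the fold. With the pseudocount 310 (58.4%) were higher and 60 (11.3%) lower, and these percentages are set beside the gene lists described here. They mix a table selected by fold with one that was not. For lists that draw much on the gliosis table they are therefore too high a background. The median log2 ratio was 1.31, or 1.12 with the pseudocount. A difference of at least 4-fold was seen in 175 genes that were higher and 30 that were lower, and one of at least 10-fold in 73 and 3. The median gene had 9.21 normalized counts in IM24h and 3.25 in control ME, so most of the listed genes are read at low levels. The heat shock protein gene Hspb1 had the highest mean in IM24h and the myosin light chain gene Myl9 the highest in control ME. How the means of the 2 groups lie to each other is shown in the plot of IM24h against control levels.

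**Figure D1:**
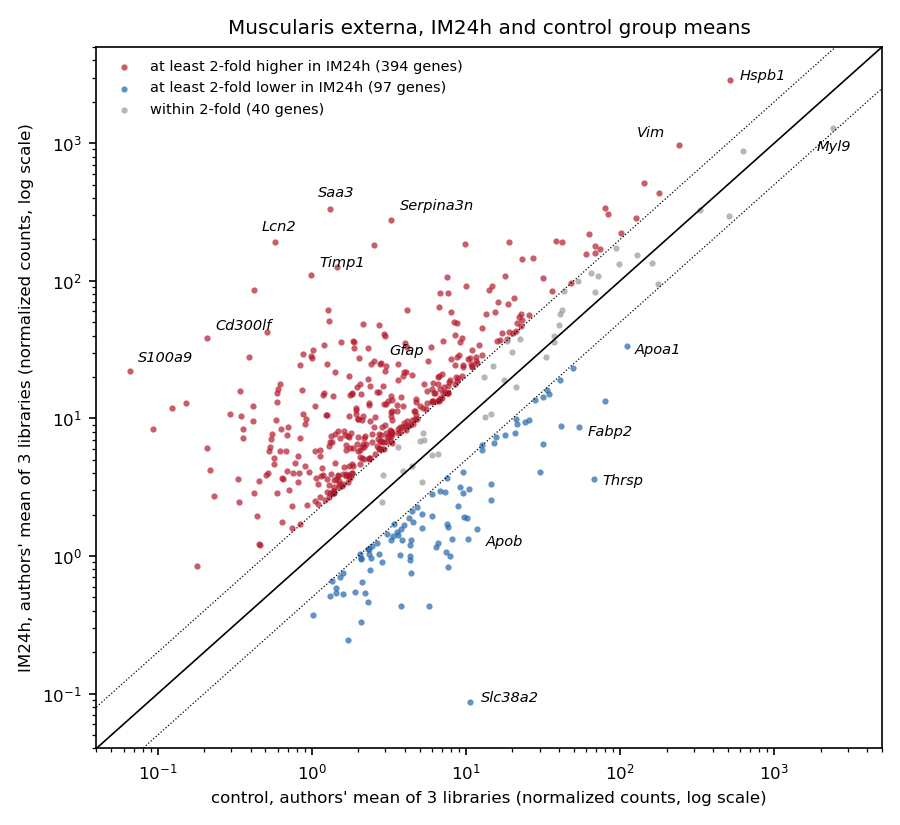
Authors' mean of normalized counts in IM24h (vertical axis) against control ME (horizontal axis), both on log scales, 1 point per gene for 531 genes. The solid line marks equal means and the dotted lines a 2-fold difference. The 394 genes above the upper dotted line spread further from equality than the 97 below the lower one, most of all where the control mean is under 1.

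Acute phase and secreted defence genes led the genes that were higher. Saa3, which encodes serum amyloid A3, an acute phase protein made by macrophages and stromal cells, had 332 normalized counts in IM24h and 1.31 in control ME, a log2 ratio of 7.98 (7.17 with the pseudocount). Lcn2, for lipocalin 2, which withholds iron from bacteria, had 192 in IM24h and 0.573 in control ME (8.39, and 6.94 with the pseudocount). Serpina3n, a serine protease inhibitor and a marker of reactive astrocytes, had 274 in IM24h and 3.27 in control ME, an 83.8-fold difference. None of the 3 genes reached 4 normalized counts in control ME. Timp1, the inhibitor of matrix metalloproteinases, reached 110 in IM24h against 0.994 in control ME, or 5.80 on the log2 scale with the pseudocount. H19, an imprinted long noncoding RNA of fetal and regenerating tissue, had 86.4 in IM24h and 0.422 in control ME (5.94 with the pseudocount).

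Chemokines formed the next group among the 15 highest genes. Ccl9, a chemokine of myeloid cells in mice, had 182 in IM24h and 2.52 in control ME. Ccl7 had 61.3 in IM24h and 1.27 in control ME, and Ccl2 had 50.8 and 1.29 in the same order. Both bind CCR2, the receptor by which monocytes are drawn from the blood. The rest were Vmp1, for a membrane protein of autophagy (126 in IM24h, 1.45 in control), Cd300lf, an inhibitory receptor of myeloid cells (38.3 and 0.209), Chrdl2, a secreted BMP antagonist (42.5 and 0.515), S100a9, a calcium-binding protein of neutrophils and monocytes (22.2 and 0.0658), Snora81, a small nucleolar RNA (28.0 and 0.394), Ifitm1, an interferon-inducible membrane protein (185 and 9.87) and Jaml, an adhesion molecule of leukocytes (29.1 and 0.877). Snora81 lies inside a host gene, and reads of both cannot be told apart here. Vmp1 is listed through 1 transcript, so nothing can be said of any other transcripts of it.

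The genes that were lower in IM24h reached smaller ratios. Thrsp, a regulator of fatty acid synthesis, had 3.61 normalized counts in IM24h and 68.0 in control ME, 18.8-fold lower. Dgkb, a diacylglycerol kinase, had 4.09 in IM24h and 30.1 in control ME. Slpi, a protease inhibitor of secretory epithelium and neutrophils, had 13.5 in IM24h and 79.5 in control ME. Foxp2, a transcription factor, had 8.79 in IM24h and 41.2 in control ME. The phosphate transporter gene Slc20a2 had 6.56 in IM24h and 31.5 in control ME, and Spock2, a matrix proteoglycan, had 2.55 and 14.6. Fabp2, Apob and Clca4a, genes of the enterocyte, are described with the epithelium. Casc4, Cyp2s1, Tfdp2, Inpp5e and Zfp532 completed the 15, with 0.433 to 1.33 in IM24h and 5.79 to 10.3 in control ME. Slc38a2, an amino acid transporter gene, had the lowest ratio of all 531 genes (0.0867 in IM24h and 10.7 in control ME). It is listed through 1 transcript, NM_001355633, so nothing can be said of its other transcripts.

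**Figure D2:**
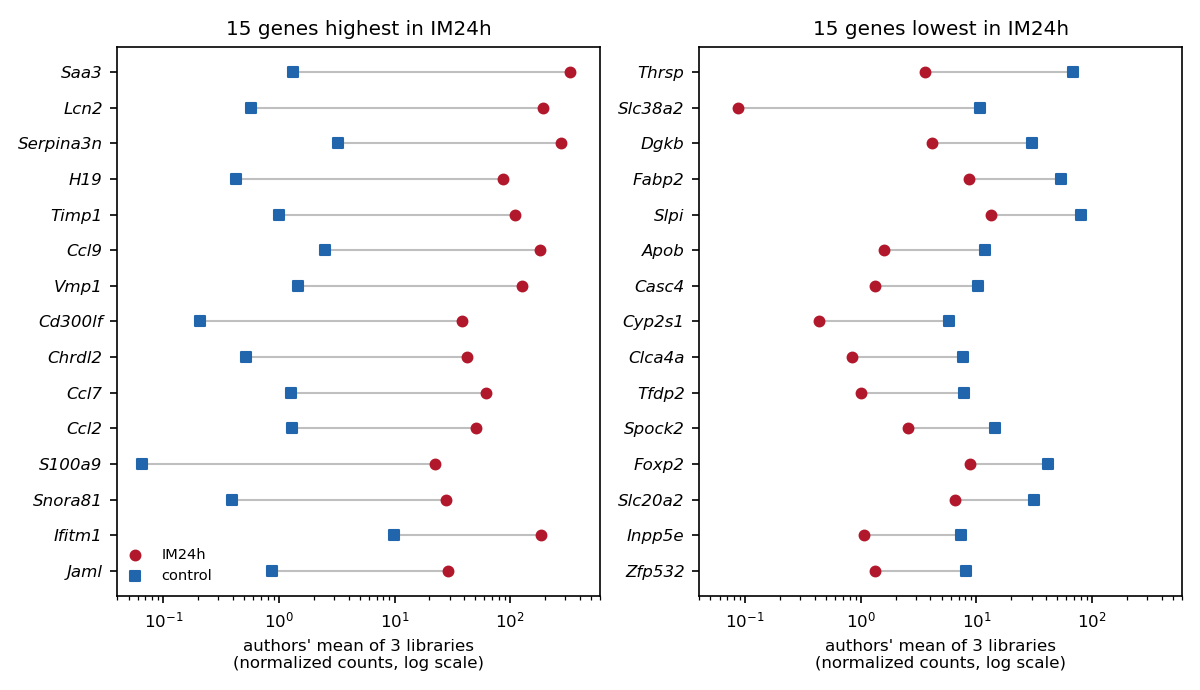
Authors' mean of normalized counts on a log scale in IM24h (circles) and control ME (squares) for the 15 genes with the highest and the 15 with the lowest ratio, ordered by the log2 ratio with a pseudocount of 1. Saa3 is at 332 and 1.31, Thrsp at 3.61 and 68.0, and the symbols of most genes lie further apart in the left panel than in the right one, where Slc38a2 is the exception.

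Leukocyte genes were higher almost without exception. Of 35 markers of monocytes and macrophages, chosen with earlier results of these data known, 21 were in the tables. All 21 were higher in IM24h, with and without the pseudocount, where 74.2% of all genes were higher (58.4% with the pseudocount). Their median log2 ratio was 3.82 (3.23 with the pseudocount), against 1.31 over all 531 genes. Most of the 21 stand in the table of changed genes, where passing the fold is no finding. Their summed level was 753 normalized counts in IM24h and 69.2 in control ME. Itgam, the integrin chain CD11b, had 36.0 in IM24h and 1.87 in control ME. Cd68, a lysosomal protein of macrophages, had 40.8 in IM24h and 2.93 in control ME. Ctss, the lysosomal protease cathepsin S, had 106 in IM24h and 7.47 in control ME. The other markers ranged in their ratio from 1.85 for Csf1r, the receptor for the macrophage growth factor CSF1, to 7.51 for Cd300lf. Csf1r was thus the smallest ratio of the list although it was well expressed, with 74.6 in IM24h and 20.6 in control ME. Adgre1, Cd163 and Mrc1, markers of resident macrophages, are not in the tables and were not analysed here. In whole tissue a larger number of cells of a type and more RNA per cell cannot be told apart, and this holds for every cell type named here.

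Of 19 neutrophil markers 6 were in the tables, all 6 in the table of changed genes, where passing the fold is no finding. The share of higher genes over all 531 was 74.2%, or 58.4% with the pseudocount. S100a9, Lcn2, Il1r2, a decoy receptor for interleukin 1, Adam8, a membrane protease of leukocytes, and Mmp9, a matrix protease stored in neutrophils, were higher, and Slpi was lower, with and without the pseudocount. Il1r2 had 11.9 in IM24h and 0.124 in control ME, Adam8 had 8.35 and 0.0929, and Mmp9 had 12.7 and 3.03. Of these Lcn2, Il1r2 and Adam8 are also made by other cells, and S100a8, Ly6g, Mpo and Elane were not analysed here. Their summed level was 261 in IM24h and 83.4 in control ME, of which Lcn2 made the most in IM24h and Slpi the most in control ME. Of 12 markers of lymphocytes and mast cells none was in the tables.

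Signalling and adhesion genes of leukocytes followed the same direction, with 25 of 25 listed genes higher (24 with the pseudocount). The share over all 531 genes was 74.2%, or 58.4% with the pseudocount. All but Cd44 stand in the table of changed genes, where passing the fold is no finding. Their median log2 ratio was 3.18, against 1.31 over all genes. Srgn, the granule proteoglycan serglycin, had 47.6 in IM24h and 2.71 in control ME. Cd53, a tetraspanin of leukocytes, had 32.2 in IM24h and 1.87 in control ME. Lyn, a kinase of the Src family in myeloid cells, had 24.7 in IM24h and 2.42 in control ME. Cd44, the hyaluronan receptor, had the highest level of the list, 195 in IM24h against 38.3 in control ME. Icam1, through which leukocytes adhere to endothelium, had 10.2 in IM24h and 2.58 in control ME.

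Among chemokines and cytokines, 13 of 16 listed genes were higher and 2 lower (11 and 0 with the pseudocount), where 74.2% of all genes were higher (58.4% with the pseudocount). Apart from Ccl9, Ccl7 and Ccl2 the levels were low in both groups. Cxcl1, which attracts neutrophils, had 2.74 in IM24h and 0.230 in control ME, and Cxcl10, an interferon-inducible chemokine, had 5.36 and 0.817. Il11, a cytokine of the IL-6 family, had 1.94 in IM24h and 0.441 in control ME. Flt3l, a growth factor of dendritic cells, had 11.3 in IM24h and 3.30 in control ME. The 2 lower genes, Hgf, a growth factor of mesenchymal cells, and Ccl25, a chemokine of the gut epithelium, had 2.26 and 0.752 in IM24h and 4.84 and 1.59 in control ME, and neither passed the fold with the pseudocount.

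Of 15 listed receptors for cytokines, chemokines and complement fragments 13 were higher and 1 lower, with and without the pseudocount. The share of higher genes over all 531 was 74.2%, or 58.4% with the pseudocount. Most of the 15 stand in the table of changed genes, where passing the fold is no finding. Ccr1, a chemokine receptor of monocytes and macrophages, had 17.7 in IM24h and 0.621 in control ME. C3ar1 and C5ar1, which bind the complement fragments C3a and C5a, had 64.6 and 14.4 in IM24h, and 6.70 and 1.37 in control ME. Osmr, the receptor chain for oncostatin M, had 11.8 in IM24h and 1.95 in control ME. Il13ra1 had 83.9 in IM24h and 43.0 in control ME, within the fold. Tnfrsf19, a receptor of the TNF family, was the lower one, with 16.1 in IM24h and 33.5 in control ME.

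In the acute phase, complement and iron list, 15 of 19 genes were higher, 1 lower and 3 within the fold (14 higher and 0 lower with the pseudocount). Of all 531 genes 74.2% were higher, or 58.4% with the pseudocount. Lrg1, a plasma glycoprotein of the acute phase, had 48.3 in IM24h and 2.16 in control ME. Hmox1, the enzyme that opens the haem ring, had 14.9 in IM24h and 1.19 in control ME. Ptx3, a soluble pattern receptor, had 6.09 in IM24h and 0.210 in control ME. The complement genes stood apart from these by their values: C3 had 95.4 in IM24h and 175 in control ME, and C4b had 37.99 and 22.5. C1ra, a protease of the first complement complex, was higher, with 54.8 in IM24h and 21.98 in control ME.

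Of 17 listed genes of antigen presentation and the interferon response 11 were higher and 1 lower (10 and 0 with the pseudocount). Over all 531 genes 74.2% were higher, or 58.4% with the pseudocount, so the share of higher genes does not set this list apart. The lower gene was Ifit1bl2, with 1.19 in IM24h and 2.46 in control ME. H2-K1, a class I heavy chain, had 170 in IM24h and 73.6 in control ME, and Psmb8, a subunit of the immunoproteasome, had 45.2 and 12.8. B2m, the light chain of class I molecules, and H2-D1 lay within the fold, at 878 and 172 in IM24h and 627 and 94.7 in control ME. H2-K1 and H2-D1 are close in sequence, as are Ifi207 and Ifi209, and reads may have been divided between them. The same holds for Lilr4b and Lilrb4a, Ms4a6c and Ms4a6d, Slfn1 and Slfn2, and Hspa1a and Hspa1b.

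**Figure D3:**
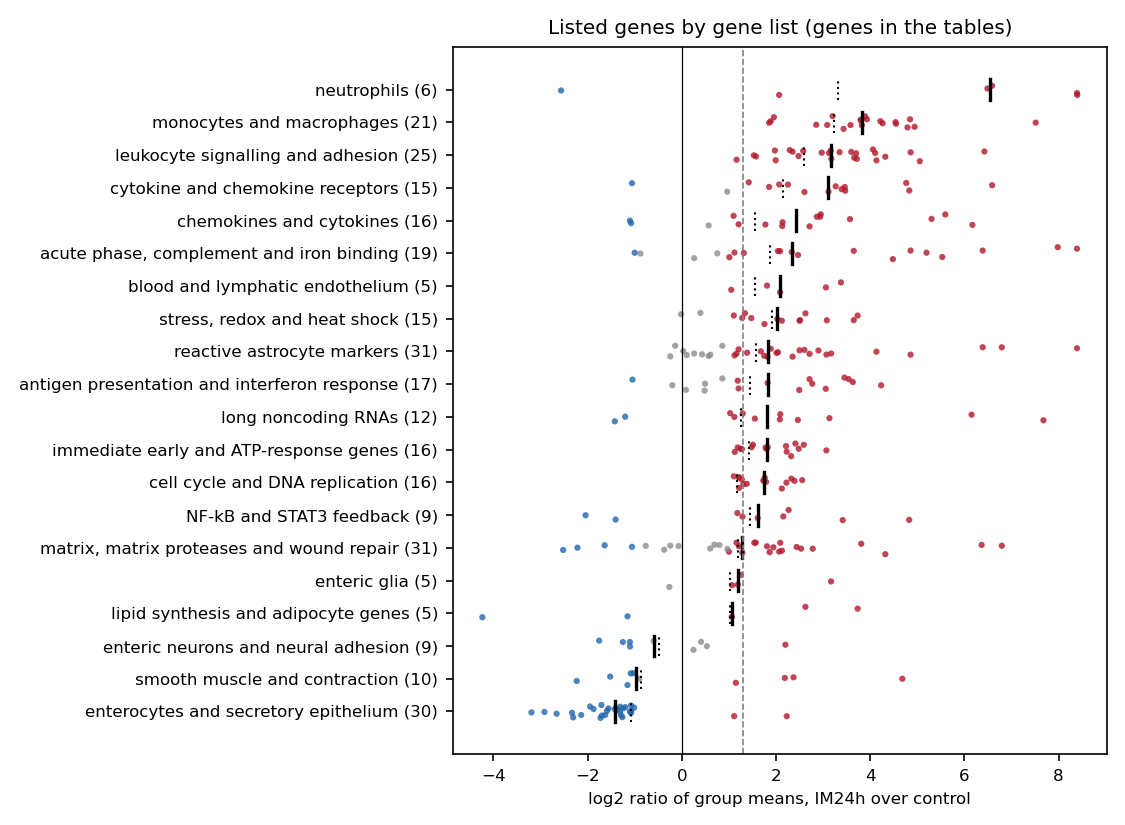
Log2 ratio of the group means, IM24h over control, for each listed gene of the 20 lists with at least 5 genes in the tables, with the number of genes in brackets. Red points are at least 2-fold higher in IM24h, blue points at least 2-fold lower and grey points within the fold. Solid bars mark the list median, dotted bars the median with a pseudocount of 1, the solid line equality and the dashed line the median of all 531 genes (1.31). The medians of the leukocyte lists lie to the right of the dashed line and that of the enterocyte list to the left of equality.

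Of 27 immediate early genes, which are transcribed within minutes of a stimulus, 16 were in the tables. All 16 were higher in IM24h (15 with the pseudocount), with a median log2 ratio of 1.81. They stand in the table of changed genes, which holds no gene back at its control level at 24 h. Their persistence is therefore no finding. Egr1 had 31.2 normalized counts in IM24h and 11.0 in control ME, and Fos had 11.1 and 3.25. Maff, a small MAF factor, had 14.8 in IM24h and 1.77 in control ME. Of the feedback genes of NF-kB and STAT3, Socs3, the inhibitor of cytokine signalling, had 81.8 in IM24h and 7.66 in control ME, a 10.7-fold difference, and Nfkbia, the inhibitor of NF-kB, had 286 and 126. Ripk2 and Cflar, in the same list, were lower, at 0.536 and 0.543 in IM24h and 2.21 and 1.44 in control ME. Cflar did not pass the fold with the pseudocount.

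Stress genes were higher in 13 of 15 listed cases, with and without the pseudocount, and none was lower. The share of higher genes over all 531 was 74.2%, or 58.4% with the pseudocount. Most of the 15 stand in the table of changed genes, where passing the fold is no finding. Hspb1, the small heat shock protein HSP27, had 2902 normalized counts in IM24h and 513 in control ME, 5.66-fold higher. Its relative Hspb6, a small heat shock protein of muscle, had 328 in IM24h and 331 in control ME. Plin2, which coats lipid droplets, had 143 in IM24h and 23.2 in control ME, and Angptl4, an inhibitor of lipoprotein lipase, had 39.8 and 2.99. Cdkn1a, the cell cycle inhibitor p21, had 70.3 in IM24h and 16.1 in control ME. Of the lipid genes beside these, Gpam, an enzyme of triglyceride synthesis, had 47.3 in IM24h and 22.7 in control ME, whereas Thrsp was lower.

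All 16 listed genes of the cell cycle and DNA replication were higher in IM24h (13 with the pseudocount). The share over all 531 genes was 74.2%, or 58.4% with the pseudocount. Most of the 16 stand in the table of changed genes, where passing the fold is no finding. Their median log2 ratio was 1.74, against 1.31 over all genes. Mcm2, a subunit of the replicative helicase, had 15.7 in IM24h and 2.66 in control ME. Tk1, thymidine kinase, had 5.94 in IM24h and 1.13 in control ME, and Cdk1, the kinase of mitotic entry, had 4.77 and 1.41. Their summed level was 181 in IM24h and 52.5 in control ME, of which Cdkn1a, an inhibitor and not a driver of the cycle, made 70.3 and 16.1. Without it, the levels of the list are small, and those of Suv39h2, Haus5 and Cenpw passed the fold only without the pseudocount.

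Matrix genes were divided. Of 31 listed genes 19 were higher, 4 lower and 8 within the fold (17 higher and 4 lower with the pseudocount). Their median log2 ratio was 1.28, against 1.31 in all genes and 0.97 in the gliosis table, where many of them stand. Tnc, for tenascin C, a matrix protein of wounds, had 340 in IM24h and 79.8 in control ME. Tgfbi, an adhesive matrix protein induced by TGF-beta, had 148 in IM24h and 27.2 in control ME. Adamts4, an aggrecanase, had 32.6 in IM24h and 2.33 in control ME. Fibrillar collagen genes were nearer to the control, with 83.7 in IM24h and 36.1 in control ME for Col5a1 and 95.6 and 47.8 for Col5a2. Decorin, Dcn, a small proteoglycan of collagen fibrils, had 298 in IM24h and 506 in control ME, within the fold. Ltbp4, Matn4, Fras1 and Spock2 were the 4 lower genes.

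Of 37 markers of reactive astrocytes 31 were listed, many of them in the gliosis table. Of these, 22 were higher, none lower and 9 within the fold, with and without the pseudocount. Over all 531 genes 74.2% were higher, or 58.4% with the pseudocount, so by the plain ratio the share of higher markers is no larger. Vim, for vimentin, an intermediate filament of reactive glia and of fibroblasts and leukocytes, had 965 in IM24h and 239 in control ME. Gfap, the filament of astrocytes and enteric glia, had 25.2 in IM24h and 2.79 in control ME through NM_010277, 9.002-fold higher. Its other listed transcript, NM_001131020, had 5.13 and 4.33. Nes, for nestin, had 17.9 in IM24h and 5.31 in control ME, and Ptgs2, the inducible cyclooxygenase, had 28.1 and 8.77. Amigo2, S1pr3 and Ggta1, also markers of reactive astrocytes, had 4.54, 18.9 and 5.44 in IM24h and 4.44, 17.5 and 5.99 in control ME. Many of the markers are not particular to glia: Lcn2, Timp1, Srgn, Cd44 and Cd14 are in leukocytes or fibroblasts as well, and the share of each cell type in their levels was not tested.

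Genes of enteric glia were listed in small number, 5 of 15, of which 4 were higher (3 with the pseudocount). Over all 531 genes 74.2% were higher, or 58.4% with the pseudocount, so nothing is read from this count. Besides Gfap, Lgi4, a secreted protein of peripheral glia, had 18.4 in IM24h and 7.71 in control ME, and Slc1a3, a glutamate transporter, had 7.40 and 3.25. Gja1, for connexin 43, had 134 in IM24h and 161 in control ME. Sox10 and S100b were not analysed here. The ratio of Gfap through NM_010277 (3.17) exceeded those of Lgi4 (1.25) and Slc1a3 (1.19). That of its other listed transcript, NM_001131020, was below both (0.24).

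Of 23 genes of enteric neurons and neural adhesion 9 were listed. Of these, 1 was higher, 4 were lower and 4 lay within the fold (1 higher and 3 lower with the pseudocount). The share of neurons in their levels was not tested. Vgf, a secretory protein that neurons make upon stimulation, had 20.5 in IM24h and 4.46 in control ME. Cntn1, an adhesion molecule of axons, had 7.52 in IM24h and 17.9 in control ME, and Epha4, an ephrin receptor, had 19.02 and 40.7. Gap43, a protein of growing axons, had 48.0 in IM24h and 40.4 in control ME. The list's summed level was 170 in IM24h and 171 in control ME.

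Muscle genes were few, 10 of 24, with 4 higher and 5 lower (4 and 3 with the pseudocount). Myl9, the myosin light chain whose phosphorylation drives contraction, had 1291 in IM24h and 2414 in control ME, within the fold. It is the 1 defining contractile gene in the tables against which the label of the tissue could be checked, and its level in control ME is above that of any other of the 531 genes. Acta2, Myh11, Des and Tagln were not analysed here. Among the lower genes, Adrb3, the beta-3 adrenoceptor, had 14.2 in IM24h and 31.6 in control ME, Tbxa2r, the thromboxane receptor, had 3.17 and 9.09, and Ntsr1, a neurotensin receptor, had 2.82 and 5.98. With the pseudocount Ntsr1 and Adra2b no longer passed the fold. Among the higher genes, Ankrd1, a titin-binding protein, had 15.2 in IM24h and 0.592 in control ME, and Flnc, for filamin C, had 193 and 42.2. Of the 6 markers of interstitial cells of Cajal and PDGFRA cells none was in the tables.

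Epithelial genes had the opposite direction. Of 43 genes of enterocytes and secretory epithelium, also chosen with earlier results known, 30 were listed. Of these, 28 were lower in IM24h and 2 higher (18 and 1 with the pseudocount), where 18.3% of all genes were lower. The 30 genes stand in the table of changed genes, so only their direction is a finding. Their median log2 ratio was -1.41, or -1.08 with the pseudocount. Apoa1, the main protein of high-density lipoprotein, had 33.7 in IM24h and 110 in control ME. Fabp2, the fatty acid binding protein of enterocytes, had 8.61 in IM24h and 54.3 in control ME, 6.31-fold lower. Apob, the protein around which chylomicrons are built, had 1.57 in IM24h and 11.9 in control ME. Clca4a, a protein of the enterocyte that is close in sequence to Clca4b, had 0.832 in IM24h and 7.60 in control ME. The brush border enzymes and carriers Sis, Mgam and Slc5a1 had 1.94, 9.94 and 6.58 in IM24h, and 9.73, 20.99 and 15.1 in control ME. Xdh, xanthine dehydrogenase, and B3gnt8, a glycosyltransferase, were the 2 higher genes, and neither is particular to epithelium.

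These genes belong to the mucosa, which is peeled off when ME is prepared. Their summed level was 165 normalized counts in IM24h and 393 in control ME, and 3 examples show the values at 3 h. Fabp2 had 54.3 in control ME, 133 in IM3h and 8.61 in IM24h. Apoa1 had 110 in control ME, 223 in IM3h and 33.7 in IM24h, and Sis had 9.73 in control ME, 23.4 in IM3h and 1.94 in IM24h. The part that mucosa left on the muscle has in these values was not tested.

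The 24 h value lay on either side of the 3 h value in the genes that were higher. Saa3 had 1.31 in control ME, 9.15 in IM3h and 332 in IM24h, and Ctss had 7.47 in control ME, 15.01 in IM3h and 106 in IM24h. In contrast Ccl2 had 1.29 in control ME, 184 in IM3h and 50.8 in IM24h, and Socs3 had 7.66 in control ME, 205 in IM3h and 81.8 in IM24h. Gfap had 2.79 in control ME, 11.3 in IM3h and 25.2 in IM24h through NM_010277. Through NM_001131020 it had 4.33 in control ME, 10.6 in IM3h and 5.13 in IM24h. All 3 libraries of IM3h carry numbers of another library series than the other 6, so that series and the effect of 3 h cannot be told apart. IM24h and control libraries carry numbers of the same series.

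Endothelial genes were listed in 5 of 13 cases and all 5 were higher (4 with the pseudocount), among them Ctla2a, a protease inhibitor (26.3 in IM24h, 2.53 in control ME), and Rasip1, needed for the lumen of vessels (19.4 and 2.33). Of 9 mesothelial markers only Pdpn, for podoplanin, was listed, with 21.6 in IM24h and 3.93 in control ME, and podoplanin is also found on lymphatic vessels and fibroblasts. Of 12 listed noncoding RNAs 10 were higher and 2 lower (8 and 1 with the pseudocount). The endothelial genes and these RNAs all stand in the table of changed genes, where passing the fold is no finding. The share of higher genes over all 531 was 74.2%, or 58.4% with the pseudocount. Gas5, the host of several small nucleolar RNAs, had 35.2 in IM24h and 4.01 in control ME, and Bvht, a long noncoding RNA of cardiac development, had 7.78 and 20.9.

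The effect of the pseudocount depended on the level. In the 98 genes whose lower mean was under 1 normalized count, the pseudocount of 1 took a median of 1.07 from the size of the log2 ratio, and 76 of 98 still passed the fold. In the 199 genes with a lower mean from 1 to 3 it took 0.41, and 130 of 197 that passed the fold still did. From 3 to 10 it took 0.15 (104 of 133), and from 10 on 0.03 (60 of 63). S100a9 lost the most, 3.95, because its control mean of 0.0658 amounts to less than 1 normalized count in the 3 control libraries together. The same was true of the control mean in 11 of 531 genes, and of the IM24h mean in 2. For these genes the ratio says that the level in 1 group was very low and not how large the difference is. The number of reads behind such a level is unknown.

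The order of the leading genes shifted with it. S100a9 was first by the plain ratio and the twelfth with the pseudocount, and Saa3 was the third and then the first. Of the 15 genes at each end 12 were the same with and without the pseudocount. Il1r2, Adam8 and Slfn1 left the 15 highest, and Ccl2, Jaml and Ifitm1 took their place. Ppl, Fam83b and Mtmr14 left the 15 lowest, and Spock2, Slc20a2 and Foxp2 came in. The genes that came in had lower means of 0.877 to 9.87, and those that left had 0.0929 to 0.432.

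**Figure D4:**
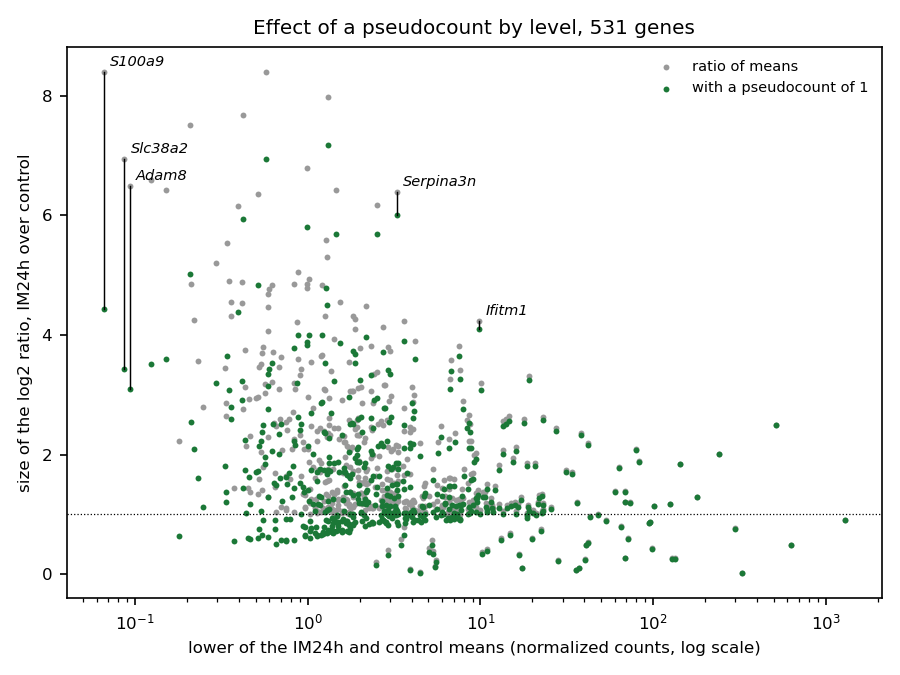
Size of the log2 ratio of IM24h to control, whatever its sign, against the lower of the IM24h and control means on a log scale, for 531 genes. Grey points are plain ratios, green points ratios with a pseudocount of 1, and black lines join the values of 5 named genes. The dotted line is the 2-fold mark. S100a9 moves by 3.95 and Ifitm1, with 9.87 in control ME, hardly at all.

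Transcripts of 1 gene mostly carried the same ratio. Of 81 genes with more than 1 listed transcript, 54 had log2 ratios equal within 0.01 and 10 had ratios more than 0.5 apart. Since the kit reads only the 3' end, transcripts that end at the same base cannot be separated by it unless they differ within the read. In 42 genes all listed transcripts end within 100 bases of each other in the GENCODE annotation, and 5 of these 42 still had ratios more than 0.5 apart. Osbpl1a, an oxysterol binding protein gene, is an example. Its transcript NM_001252491 had 0.734 in IM24h and 10.95 in control ME, and NR_045524 had 13.1 and 0.590, although their ends lie 10 bases apart. Gcnt2, a glycosyltransferase gene, had transcripts whose ends span 5 bases with log2 ratios of -1.48, 0.10 and 5.24. For such genes the deposited values are uncertain, and how reads were given to transcripts is not stated in the sources used here.

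Gfap and Vcan differ from this, as the ends of their listed transcripts span 2830 and 1744 bases. Which of the Vcan transcripts share an end was not examined. Gfap NM_010277, the main transcript of astrocytes, had 25.2 in IM24h and 2.79 in control ME, and NM_001131020, which ends 2830 bases away, had 5.13 and 4.33. The difference in Gfap was thus carried by 1 of its 2 listed ends. Vcan, for the proteoglycan versican, had 24.9 in IM24h and 3.63 in control ME through NM_001134475, and log2 ratios of 0.43 to 2.14 through the 3 other transcripts.

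**Figure D5:**
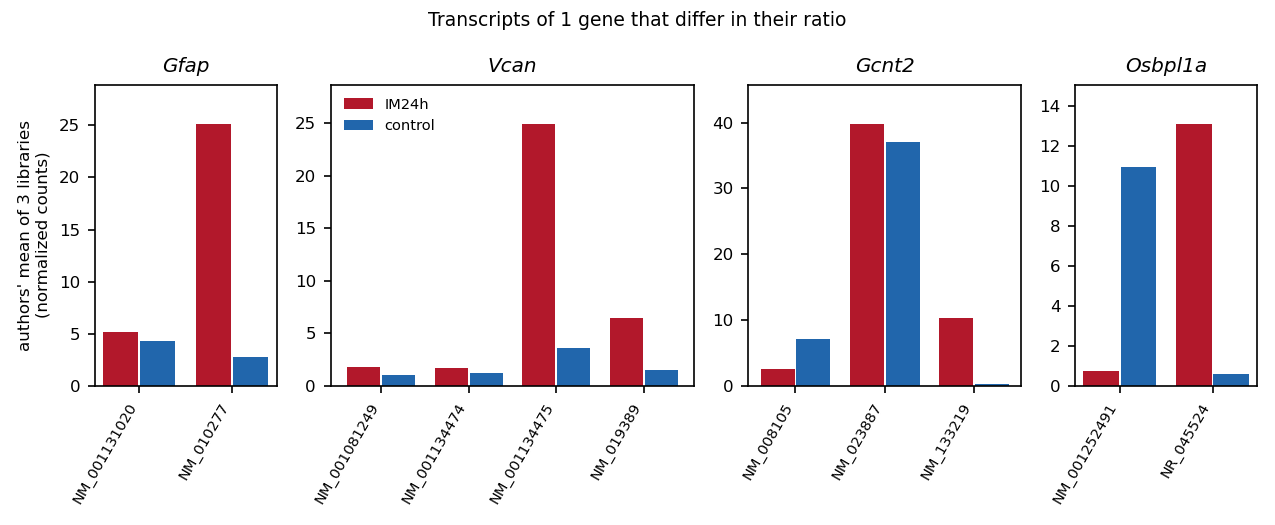
Authors' mean of normalized counts in IM24h (red) and control ME (blue) for every listed transcript of 4 genes, each panel with its own axis from 0. In Gfap and Vcan 1 transcript holds most of the difference, and in Osbpl1a and Gcnt2 transcripts that end within 10 bases of each other differ in opposite directions.

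Promoters were searched for 4 short motifs in the RefSeq sequences (GRCm38.p6, 250 bases before to 50 after the start of a gene), because many of the leading genes are known targets of the factors concerned. The motifs, read on both strands and with N for any base, were TTCNNNGAA (STAT factors), GGANNTTCC (NF-kB), TGANTCA (AP-1) and TTNNGNAAT (C/EBP). Promoters were at hand for 92 of 125 genes that were at least 4-fold higher in IM24h with the pseudocount, and for 10 of 14 that were at least 4-fold lower. The STAT motif was in 10 of the 92 (10.9%), against 9.55% of all genes with a promoter. The AP-1 motif was in 11 (12.0%, against 8.97%), the NF-kB motif in 9 (9.78%, against 4.86%) and the C/EBP motif in 10 (10.9%, against 13.1%). Of the 10 lower genes 4 held the C/EBP motif (Apob, Dgkb, Fabp2 and Slpi) and none held the others. These shares lie near those of all genes or rest on a handful of genes, and no difference is read from them. Shown are 3 promoters of genes that were higher and, for comparison, that of Fabp2, which was lower and holds the same motif as Serpina3n, with the matches in capitals.
Serpina3n promoter, chr12:104406458-104406757, plus strand: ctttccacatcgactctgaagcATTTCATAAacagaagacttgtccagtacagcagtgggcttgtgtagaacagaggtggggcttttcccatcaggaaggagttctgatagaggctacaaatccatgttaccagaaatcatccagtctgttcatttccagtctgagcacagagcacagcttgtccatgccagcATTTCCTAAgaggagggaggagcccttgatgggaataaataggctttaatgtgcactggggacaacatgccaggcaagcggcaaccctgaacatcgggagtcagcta
Socs3 promoter, chr11:117969317-117969616, minus strand: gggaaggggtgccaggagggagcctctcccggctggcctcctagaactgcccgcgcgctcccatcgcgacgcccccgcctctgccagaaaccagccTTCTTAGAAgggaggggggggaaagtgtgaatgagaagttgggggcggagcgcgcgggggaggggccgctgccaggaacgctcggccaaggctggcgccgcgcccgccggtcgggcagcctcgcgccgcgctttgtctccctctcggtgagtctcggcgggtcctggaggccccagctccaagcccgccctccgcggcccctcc
Gfap promoter, chr11:102897151-102897450, minus strand: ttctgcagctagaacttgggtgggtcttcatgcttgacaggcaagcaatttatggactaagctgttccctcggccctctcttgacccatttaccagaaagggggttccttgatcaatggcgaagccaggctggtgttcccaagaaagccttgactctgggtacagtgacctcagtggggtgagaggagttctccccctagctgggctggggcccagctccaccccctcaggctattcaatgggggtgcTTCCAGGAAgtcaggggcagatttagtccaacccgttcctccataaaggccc
Fabp2 promoter, chr3:122894822-122895121, plus strand: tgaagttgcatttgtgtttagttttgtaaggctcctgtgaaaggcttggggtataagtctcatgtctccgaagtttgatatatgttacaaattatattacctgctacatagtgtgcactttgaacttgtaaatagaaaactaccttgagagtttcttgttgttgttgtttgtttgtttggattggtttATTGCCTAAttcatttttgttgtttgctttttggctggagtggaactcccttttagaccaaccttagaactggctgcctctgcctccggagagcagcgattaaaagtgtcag

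In Serpina3n and Fabp2 the capitals mark C/EBP motifs read on the opposite strand, 2 in Serpina3n and 1 in Fabp2. In Socs3 and Gfap they mark 1 STAT motif each, which in Gfap lies across the start of the gene. A match is a likeness of letters and no evidence of binding, and the motif common to Serpina3n (83.8-fold higher in IM24h) and Fabp2 (6.31-fold lower) stood in promoters of genes with opposite ratios.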

How the data were processed

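RNA of the ME was sequenced from 9 libraries (3 control, 3 IM3h, 3 IM24h) prepared by the QuantSeq 3' protocol. The authors deposited group means and totals of normalized counts per RefSeq transcript, an expression signal that is neither raw counts nor scaled to a length. Partek, with no version, is named in the processing notes of the submitters, and the aligner, the build and the normalization are not given in the sources used here. Multiplying the 3 group means by the libraries behind each and adding them gave the deposited total, so the means are plain averages. The tables also hold the authors' own p-values, adjusted p-values, ratios and fold changes for each contrast, and a list of gene ontology terms, none of which were used.

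Ratios were taken as the IM24h mean over the control mean, plain and with pseudocounts of 0.5, 1 and 5, with a fold of 2 or 4 and with or without a minimum total of 90. The alternatives are compared in the closing section. The depth per library is unknown, the precision of a value cannot be given, and no test was run. The 15 highest and 15 lowest genes by the log2 ratio with a pseudocount of 1 were named, as were members of 23 gene lists. The members and lists were chosen with earlier results of these data known. The lists hold 510 genes, 282 of them in the tables. A RefSeq gene table (GRCm38.p6) matched 527 of 531 symbols, and all with synonyms. Positions of 3' ends came from GENCODE M21. Calculations used Python 3.11.15, pandas 2.3.3 and numpy 2.4.6, and were tested on simulated means with known ratios. Some genes are not reported here.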

Additional observations from a re-analysis of the deposited data

How the results depend on the processing

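No median of a whole table changed sign with a minimum total of 90. A pseudocount added to both means cannot change the sign of a ratio. Only pseudocounts were run for the 30 named genes, so their unchanged signs are no finding. With a pseudocount of 5 in place of the plain ratio, 172 genes were higher in IM24h and 21 lower, as were 160 and 23 transcripts of the table of changed genes and 49 and 1 of the gliosis table, and the median log2 ratio was 0.70 over all genes and 0.71 in the table of changed genes. A pseudocount of 1 left 60 lower genes, and 59 lower transcripts in the table of changed genes. A minimum total of 90 left 150 higher and 26 lower genes, 131 higher and 24 lower transcripts in the table of changed genes, and 5 lower ones in the gliosis table, because fewer were counted. A fold of 4 left 175 and 30 genes, 183 and 33 transcripts of the table of changed genes, and 42 and 1 of the gliosis table. Of transcripts of the gliosis table past the fold, 86.5% were higher by the plain ratio and 98.0% with the pseudocount of 5. Adding up all listed transcripts of a gene moved no list median by more than 1.5-fold. With the minimum total the list medians of enteric neurons and neural adhesion and of smooth muscle, -0.60 and -0.97 without it, were 0.25 and 0.12. Leaving out a library could not be done with group means. No paired analysis was possible because the columns are group means. What limits all of this is the lack of values per library: a mean may rest on 1 library of 3, and low means on few reads.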

Other observations

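Of the 531 genes 249 were in no list, and of these 194 were higher in IM24h ME and 46 lower. The genes named here were chosen after their values were seen. Dab2, an adaptor of endocytosis, had 36.5 normalized counts in IM24h and 1.84 in control ME. Hmga2, a chromatin protein of fetal and growing tissue, had 12.3 in IM24h and 0.417 in control ME. Nek6, a mitotic kinase, had 27.6 in IM24h and 2.02 in control ME. The reticulon gene Rtn4, for the axon growth inhibitor Nogo, had 191 in IM24h and 19.1 in control ME through transcript NM_024226, the transcript that stands for it here. Among the lower genes Hoxb6, a homeobox gene of trunk patterning, had 1.88 in IM24h and 10.1 in control ME, and Ppl, for periplakin of epithelial junctions, had 0.432 and 3.79.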
